A study of Sparus aurata with 6 samples.

Results

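The 150 transcripts described here were those whose skin levels differed most between pools of gilthead sea bream that ate the same diet. They were chosen by that spread. A transcript, called here by the clone or contig name that the files give it, had to be represented by 2 or more probes well above background on all 6 arrays, which 1961 of 15156 names fulfilled. The names whose SDPP and control pools did not overlap (535 of the 1961, 27.3%) were set aside, the remaining 1426 were ranked by the pooled within-diet standard deviation (the square root of the mean of both diet variances), and the first 150 became the members. The size of the spread and the overlap of the diets are therefore properties of the choice and are given as descriptions, without a test.

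The groups were 3 pools of skin RNA from juveniles fed the SDPP diet and 3 pools from juveniles fed the control diet. The SDPP diet was based on the control formulation, with part of the fishmeal replaced by spray-dried porcine plasma at 3% of the feed. Both groups were fed for 95 days. Each pool combined the RNA of 4 fish, 1 from each tank of the diet, and was hybridized to a single Cy3 array. Pools of a diet thus held different fish of the same tanks. With 1 array per pool, a difference between their fish and a difference between their arrays cannot be told apart, and variation from fish to fish was not observed.

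Fish skin is a mucosal barrier in which a living epidermis with keratinocytes and mucus-secreting cells lies over a dermis with scales, pigment cells, vessels and nerves, and muscle and fat lie close beneath. A piece of skin holds these tissues in proportions that depend on where and how deep it was cut, and its transcripts also follow handling, infection, feeding time and the state of the single animal. In bulk RNA, fewer cells of a type and less RNA per cell cannot be told apart. The files name the transcripts only by clone and contig, and 0 of the 15156 names matched the 32006 entries of the reference gene table used here (assembly fSpaAur1.1), so that no member carries a gene name, a cell type or a function below, and the skin markers could not be looked up.

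The share of spots well above background was 36.7%, 52.7% and 40.9% in SDPP pools 1, 2 and 3, and 44.9%, 28.2% and 50.1% in control pools 1, 2 and 3. Outlier flags marked 382 spots in control pool 2 and 97 to 156 elsewhere, and no spot was saturated. Before scaling, the 75th percentile of the signal was 2203, 1829 and 2345 in SDPP pools 1, 2 and 3. It was 1786, 1419 and 2475 in control pools 1, 2 and 3. The SDPP arrays occupied position 3 and the control arrays position 2 of their slides, and the effects of position and diet cannot be separated. Levels are given as log2 intensity relative to the 75th percentile of the array, so that 0 is that percentile and a difference of 1 is a 2-fold difference in intensity. Levels were compared between pools, and not between transcripts.

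The within-diet SD of the members ran from 0.353 to 1.65 log2 units, with a median of 0.463, whereas the median over all 1961 eligible names was 0.167. The median SD was wider than over all eligible names in each diet, which follows in part from the ranking on both variances. Taken by diet, the median SD of the members was 0.411 in SDPP pools and 0.487 in control pools, and over all eligible names it was 0.139 in SDPP pools and 0.162 in control pools. The SD was larger in the control pools in 91 of the 150 members (60.7%), close to the 57.9% found over all eligible names. It was more than 2 times that in SDPP pools in 41 members, and the reverse held in 15 (24.0% and 15.3% of all eligible names). In 86 members the highest and the lowest pool of a diet lay more than 1 log2 unit apart, and in 9 members more than 2 units. Among the other eligible names 15 passed 1 unit. The wider of both diet ranges had a median of 2.12-fold in the members and of 1.31-fold over all eligible names.

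**Figure D1:**
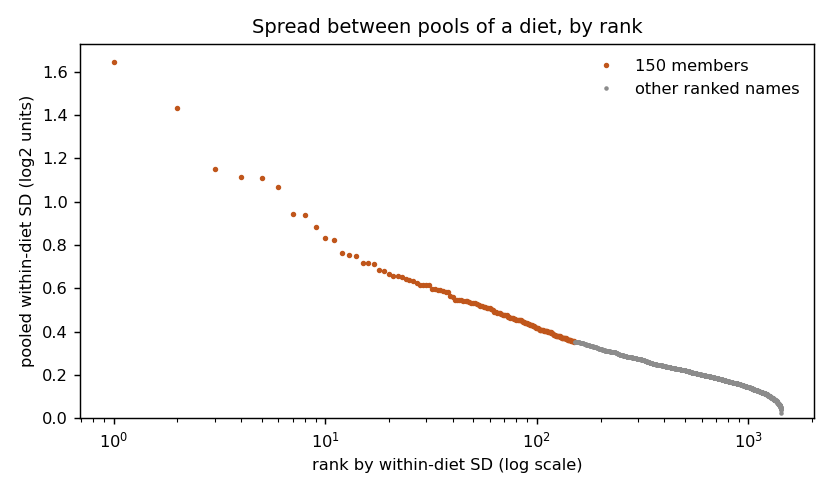
Pooled within-diet SD (log2 units, vertical axis) of the 1426 ranked names against their rank (horizontal log axis), with the 150 members in orange and the other names in grey. The curve is steep over the first names (1.65 for the first) and passes the limit at 0.353 without a step.

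The limit of 150 did not fall at a gap. The last members were cDN14P0001M10.F.ab1 with a within-diet SD of 0.356 and Seabream_2006-01-03-CL650Contig1 with 0.353, and the first names outside were SCT784_G02_JP_2_2_G2_004.ab1 with 0.353 and Seabream_2006-01-03-CL2814Contig1 with 0.352. The levels of cDN14P0001M10.F.ab1 were 1.80, 0.99 and 1.89 in SDPP pools 1, 2 and 3 and 1.71, 1.59 and 1.58 in control pools 1, 2 and 3. Thus in this name a single pool, SDPP pool 2, stood below the other 5, and the SD was 0.068 without it. In Seabream_2006-01-03-CL650Contig1 the lowest SD with a pool left out was 0.211, without control pool 2.

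The widest member was Contig1724. Its level was 3.02, -0.82 and 3.32 in SDPP pools 1, 2 and 3 and 2.06, 1.41 and 1.64 in control pools 1, 2 and 3. SDPP pools 1 and 3 were thus above, and SDPP pool 2 below, all control pools, and the highest SDPP pool exceeded the lowest 17.6-fold. The spread rested on SDPP pool 2, since the within-diet SD of 1.65 fell to 0.276 without it. All 3 probes of Contig1724 gave the low value (-1.02, -0.35 and -1.10 in SDPP pool 2, against 2.54 to 3.96 in SDPP pools 1 and 3), and the third of them was printed in 15 spots.

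Contig3415 varied in both diets. Its level was 0.16, 1.11 and 2.76 in SDPP pools 1, 2 and 3 and 2.89, 1.38 and -0.19 in control pools 1, 2 and 3. The pools of each diet were spread over the whole range with no pool near another, 6.09-fold apart in SDPP and 8.43-fold in control pools. For Contig2186 the levels were 2.00, 2.91 and 1.04 in SDPP pools and 0.73, 1.01 and 3.17 in control pools, in the order of pool number. Control pool 3 and SDPP pool 2 were high and the other 4 pools low or intermediate. Its 3 probes gave nearly the same profile, with a mean correlation of 0.998 between them.

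The member cDN04P0003K20.F.ab1 had levels of 3.07, 3.77 and 4.43 in SDPP pools 1, 2 and 3 and 5.05, 2.68 and 5.22 in control pools 1, 2 and 3. Control pool 2 was below all other pools, whereas the other control pools were above all SDPP pools. Seabream_2006-01-03-CL923Contig1 showed the opposite for this pool, with 2.89, 2.76 and 1.26 in SDPP pools and 1.29, 3.81 and 2.14 in control pools. Here control pool 2 was the highest of all 6.

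Seabream_2006-01-03-CL2755Contig1 was the member with the lowest diet difference. Its level was -0.16, 2.74 and 1.51 in SDPP pools 1, 2 and 3 and 3.54, 2.72 and 3.00 in control pools 1, 2 and 3. SDPP pools 1 and 3 were below every control pool, and SDPP pool 2 was level with the lowest of them, which is the overlap that kept this name in the ranking. The difference of SDPP minus control was -1.73 log2 units, with an adjusted p of 0.187 (limma, Benjamini-Hochberg over the 1961 names).

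The other members among the first 10 showed further arrangements. The member cDN03P0006J16.F.ab1 had 0.82, 0.68 and -0.48 in SDPP pools and 1.16, 2.10 and -0.15 in control pools, so that pool 3 was the lowest in each diet. In Seabream_2006-01-03-CL2385Contig1, with -0.72, 0.43 and 0.88 in SDPP pools and -0.94, 0.75 and 0.97 in control pools, pool 1 was the lowest in each diet and the diet means were nearly equal (difference -0.06). Pool numbers only name the pools, and the labels give no pairing. The 75th percentile of the signal before scaling was lowest in pool 2 and highest in pool 3 of each diet. Its part in the correlations below was not tested. Deviations of equally numbered pools correlated at -0.08 for pool 1, 0.27 for pool 2 and 0.19 for pool 3. Those of SDPP pool 3 and control pool 1, unlike in number but on the same slide, correlated at 0.217 over all eligible names and 0.211 over the members.

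Contig2289 resembled Contig1724, with 1.41, -0.78 and 1.06 in SDPP pools and 0.43, 0.73 and 1.26 in control pools. SDPP pool 2 was again the only low one. Seabream_2006-01-03-CL4667Contig1 had 4.05, 2.39 and 3.79 in SDPP pools and 3.36, 4.50 and 3.06 in control pools. SDPP pool 2 was the lowest here too, and control pool 2 the highest.

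**Figure D2:**
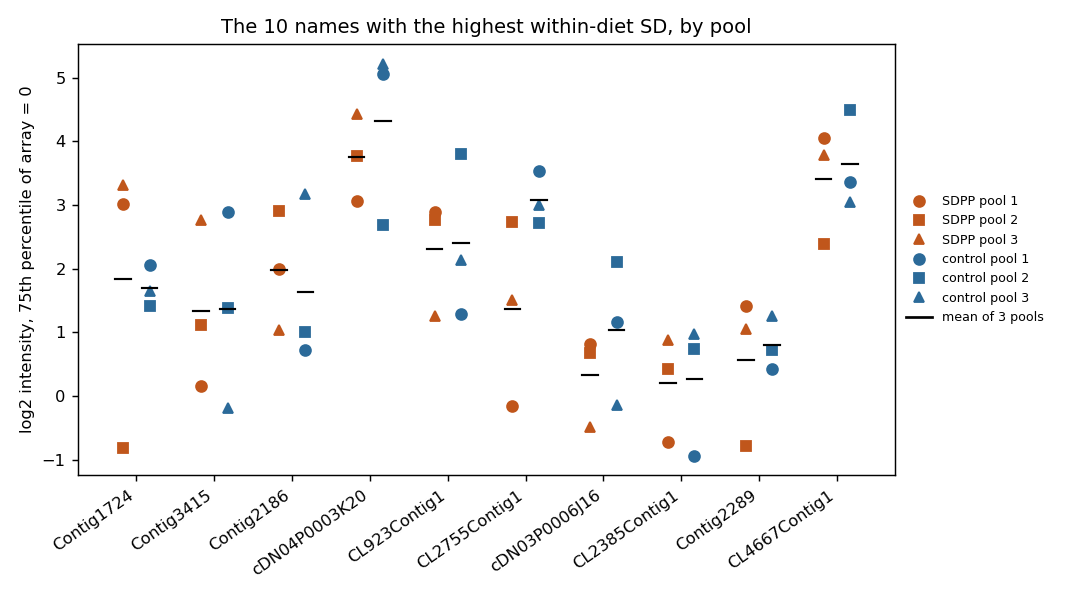
Level (log2 intensity, 75th percentile of the array set to 0) of the 10 members with the highest within-diet SD, with SDPP pools in orange on the left and control pools in blue on the right of each name, symbols for pool 1, 2 and 3 and black lines for the mean of 3 pools. The name prefix Seabream_2006-01-03- and the ending .F.ab1 are left off. In Contig1724 and Contig2289, SDPP pool 2 lies below the other 5 pools.

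A spread confined mostly to the SDPP pools was seen in 5 members, in which the SD in SDPP pools was more than 3 times that in control pools (the same held for 7.29% of all eligible names). They were Contig1724, Seabream_2006-01-03-CL2755Contig1, Seabream_2006-01-03-CL4683Contig1, Seabream_2006-01-03-CL863Contig1 and cDN14P0001M10.F.ab1. Of these, Seabream_2006-01-03-CL863Contig1, outside the naming rule, is named because of this count, and the mean correlation between its 3 probes was 0.582. Seabream_2006-01-03-CL4683Contig1 had 1.45, 0.13 and -0.13 in SDPP pools and 1.40, 1.04 and 1.39 in control pools. SDPP pool 1 was level with the control pools and the other SDPP pools were lower. The SD of 0.616 fell to 0.194 without SDPP pool 1.

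The opposite, an SD in control pools more than 3 times that in SDPP pools, was seen in 18 members (11.8% of all eligible names). Control pool 3 was farthest from the diet mean in 9 of them, control pool 2 in 7 and control pool 1 in 2. The last of these, Contig3036 and Contig3645, named after their values were seen, each held a low probe on the array of control pool 1, and their SD was 0.314 and 0.209 without that probe. Contig2074 had -0.12, -0.41 and 0.05 in SDPP pools and 0.80, 1.40 and -0.43 in control pools. Control pool 3 lay just under the lowest SDPP pool, and the other control pools above all SDPP pools. Contig1700 had 1.28, 0.96 and 1.51 in SDPP pools and 2.07, 1.97 and 0.46 in control pools, with control pool 3 the lowest of all 6. Its SD of 0.665 fell to 0.199 without control pool 3. The mean correlation between the 3 probes of Contig1700 was 0.776, and their SDs were 0.724, 0.936 and 0.462. In the last of these probes control pool 2 (1.60) was below SDPP pool 3 (1.86).

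The probes of a member mostly agreed. Agreement was measured as the mean correlation between the probes of a name, over the 6 arrays, after the diet mean had been subtracted from each probe. Its median was 0.973 in the members and 0.808 over all eligible names, and it reached 0.9 in 113 of the 150 members, against 31.6% of all eligible names. Probes of a name share RNA, array and possibly sequence, a narrow spread leaves less to correlate, and the mean over probes was part of the choice, so these values describe the members and test nothing. When each probe was left out in turn, 121 members stayed at or above the SD of the last member, and 29 fell under it. When names were instead ranked on 1 probe each, 115 of the 150 chosen were members. The remaining probes of the chosen names had a median SD of 0.455, against 0.174 over all eligible names. They had no part in that ranking, but all probes of a name had counted for its detection and for the overlap of its diets.

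**Figure D3:**
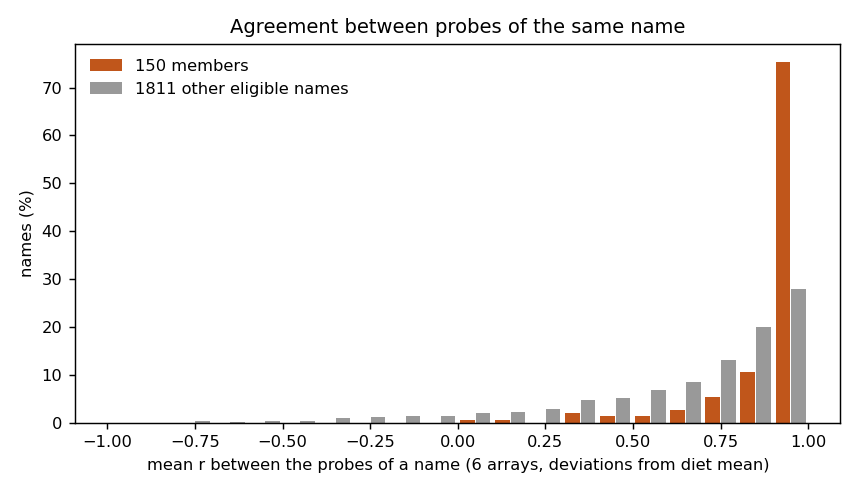
Mean correlation between the probes of a name (horizontal axis, 6 arrays, deviations from the diet mean) for the 150 members in orange and the 1811 other eligible names in grey, as the percentage of names in each interval (vertical axis). The members are concentrated above 0.9, with a tail of 7 members under 0.5.

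Repeated spots of the same probe were also close. Of the 397 probes of the members 153 had 2 or more spots, and the SD between the spots had a median of 0.0985 log2 units, against 0.0911 for the other eligible probes and a within-diet SD of 0.463 for the members. In 7 probes the SD between spots was above 0.5. Contig2358, chosen after its values were seen, had the lowest agreement of all members, with a correlation of 0.02 between its 2 probes, which had SDs of 0.869 and 0.439.

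In a few members the spread rested on single low spots. On the array of control pool 1, 12 spots between rows 469 and 524 and columns 78 and 82, at the edge of an array of 532 rows and 85 columns, read -3.76 to -3.61, more than 2 log2 units under the lowest of the other 5 arrays, and none of them carried an outlier flag. These rows and columns were drawn around the 12 spots and hold 252 spots, of which 74 were bright on the other 5 arrays. Over the whole array, 31 spots of control pool 1 read this far under the others. On the other arrays 0 to 9 did so, with 9 in 9 names on that of SDPP pool 3. The 12 low spots touched 4 members, named here after their values were seen. In Contig188 a probe printed in 2 spots read 5.92 and -3.74 on this array, and the name had levels of 2.72, 2.65 and 2.01 in SDPP pools and 0.90, 2.80 and 2.80 in control pools. The other spot and both other probes of this name read within the range of the other 5 pools on this array.

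Without the affected probe the within-diet SD of Contig188 was 0.404 in place of 0.823, still above the limit. Contig3645 fell to 0.209 in place of 0.546, Contig3036 to 0.314 in place of 0.616 and Contig2619 to 0.339 in place of 0.520, all under the limit of 0.353. These 4 were among the 9 members in which control pool 1 was farthest from its diet mean. When all spots of that part of the array were left out, 145 of the 150 members were chosen again. In Contig2872 the 2 spots of a probe differed by 2.00 log2 units on the array of control pool 2, and its SD was 0.366, and 0.372 without that probe.

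The pool farthest from the mean of its own diet was an SDPP pool in 60 members (40%) and a control pool in 90 (60%), and over all eligible names the shares were 42.5% for SDPP pools and 57.5% for control pools. By pool, SDPP pools 1, 2 and 3 stood farthest in 17, 29 and 14 members, and control pools 1, 2 and 3 in 9, 43 and 38. Control pool 2 was above its diet mean in 34 of its 43 members, and control pool 3 below it in 30 of its 38. Over all eligible names control pool 2 was above in 362 of the 599 in which it stood farthest. Control pool 3 was below in 276 of its 362, a share near that of the members. Control pool 2 took 28.7% of the members and 30.5% of all eligible names, and control pool 3 25.3% of the members and 18.5% of all eligible names. The direction of control pool 2 depended on the processing. In the same 150 members it stood farthest in 36 with normexp correction, high in 22 of them, and in 29 with the authors' background-subtracted values, high in 11 of them. With probes required on 3 of 6 arrays it stood farthest in 39 of the 150 names then chosen, high in 9 and low in 30. Control pool 2 was also the array with the fewest spots above background, and the part of weak signal in this result was not tested.

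**Figure D4:**
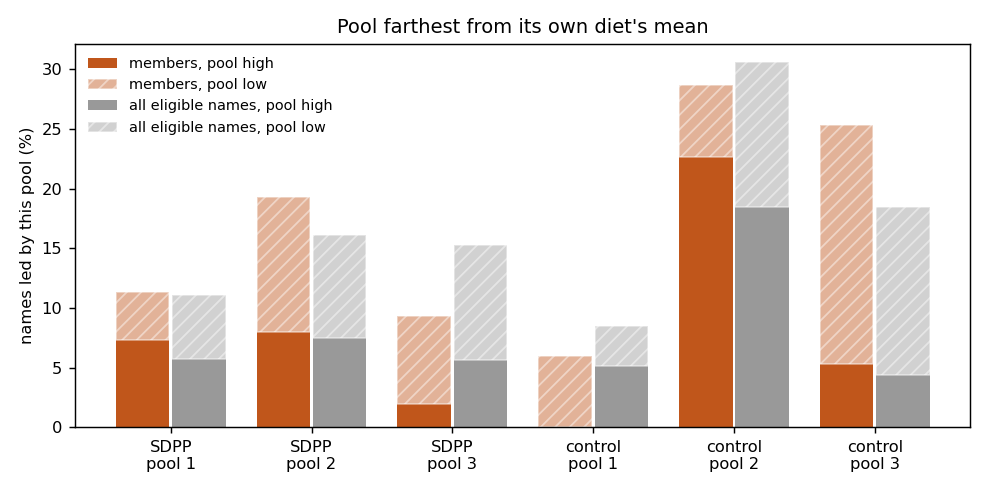
Percentage of names (vertical axis) in which each pool lay farthest from the mean of its own diet, for the 150 members in orange and all 1961 eligible names in grey, with filled parts for a pool above and hatched parts for a pool below the mean. Control pools 2 and 3 account for 28.7% and 25.3% of the members.

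Many members varied together. Clustering of the deviations from the diet mean (average linkage, 1 minus the correlation over 6 arrays, tree parted at 0.5) gave 4 patterns with 10 or more members, named A to D, which together held 113 of the 150. The other 37 members fell in 7 smaller groups. The patterns were formed from these deviations, so the counts below of pools above or below their diet mean describe them and test nothing. Of the 1811 eligible names that are not members, 22.4%, 8.95%, 5.85% and 3.87% correlated above 0.8 with the means of patterns A, B, C and D. The first component of the deviations took 42.9% of their variance in the members and 46.8% in all eligible names, and the second 23.8% and 21.3%.

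Pattern A was the largest, with 62 members. Control pool 2 was above its diet mean in 62 of 62 members (mean deviation 0.56) and control pool 3 below it in 59 (-0.45), and among the SDPP pools, pool 2 was above in 56 (0.31) and pool 3 below in 60 (-0.34). Contig1468 showed it with 4 probes and levels of 1.95, 3.09 and 1.60 in SDPP pools and 2.18, 3.31 and 1.90 in control pools. Pool 2 was the highest of each diet. In the mean deviations of pattern A, pool 2 was likewise highest and pool 3 lowest in each diet. The 75th percentile of the signal before scaling ran in the reverse order, lowest in pool 2 and highest in pool 3 of each diet. Patterns B, C and D did not show this reverse order in both diets. Whether the signal of the arrays had a part in pattern A was not tested. The pattern also held Contig3645 and Contig2619, which fell under the limit without the probe with a low spot in control pool 1. Control pool 3 was above its diet mean in both (0.17 and 0.02). The mean deviation of the other eligible names was 0.041 in control pool 2 and -0.052 in control pool 3. Names above and below their diet mean offset each other in these means. Of these 1811 names 405 (22.4%) correlated above 0.8 with the mean of pattern A. Control pool 2 was above its diet mean in 61 of the 62 members with normexp correction and in 58 with the authors' background-subtracted values. In 54 of the 62 members the SDPP mean was below the control mean, and in 52 when arrays were scaled to their median. The median difference over all eligible names was -0.0044, and 0.09 with median scaling. Of the 54, 13 belonged to a group of 15 members with near-identical deviations, described below, so that the count may stand for fewer transcripts.

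Pattern B, with 19 members, had control pool 3 below its diet mean in all 19 (mean deviation -0.64) and control pool 2 above it in all 19 (0.48), and SDPP pool 2 below in 15 (-0.22). Contig2074, Contig1700 and Seabream_2006-01-03-CL4667Contig1 were its widest members. Patterns A and B thus shared the contrast between control pools 2 and 3, and differed in the direction of SDPP pool 2 and, less uniformly, of SDPP pool 3, which was below its diet mean in 60 of the 62 members of A and above it in 13 of the 19 of B.

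Pattern C, with 17 members, was shared in the SDPP pools and not in the control pools. SDPP pool 2 was below its diet mean in 17 of 17 (mean deviation -0.78), and SDPP pools 1 and 3 were above it in 17 of 17 (0.31 and 0.46). The control means stayed between -0.08 and 0.13, but single members went both ways there. Control pool 1 was above its diet mean in 9 and below it in 8, control pool 2 in 6 and 11, and control pool 3 in 11 and 6. The widest members of pattern C were Contig1724 and Contig2289. The third, Contig2133, had 1.82, 0.94 and 1.98 in SDPP pools and 0.38, 1.95 and 1.67 in control pools, so that here control pool 1 was low as well, farther from its diet mean than SDPP pool 2.

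Pattern D, with 15 members, had control pool 3 above its diet mean in all 15 (mean deviation 0.54) and SDPP pool 3 below it in all 15 (-0.41). SDPP pool 1 was above in 14 (0.39) and control pool 2 below in 14 (-0.34). Contig1435 had 0.87, 1.09 and -0.29 in SDPP pools and 0.29, 0.48 and 1.69 in control pools. Control pool 3 was the highest and SDPP pool 3 the lowest of all 6. Contig2186 and Seabream_2006-01-03-CL4683Contig1 belonged to the same pattern, and no member of pattern D had a probe correlation under 0.8 (12 of pattern A, 4 of pattern B and 1 of pattern C did).

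**Figure D5:**
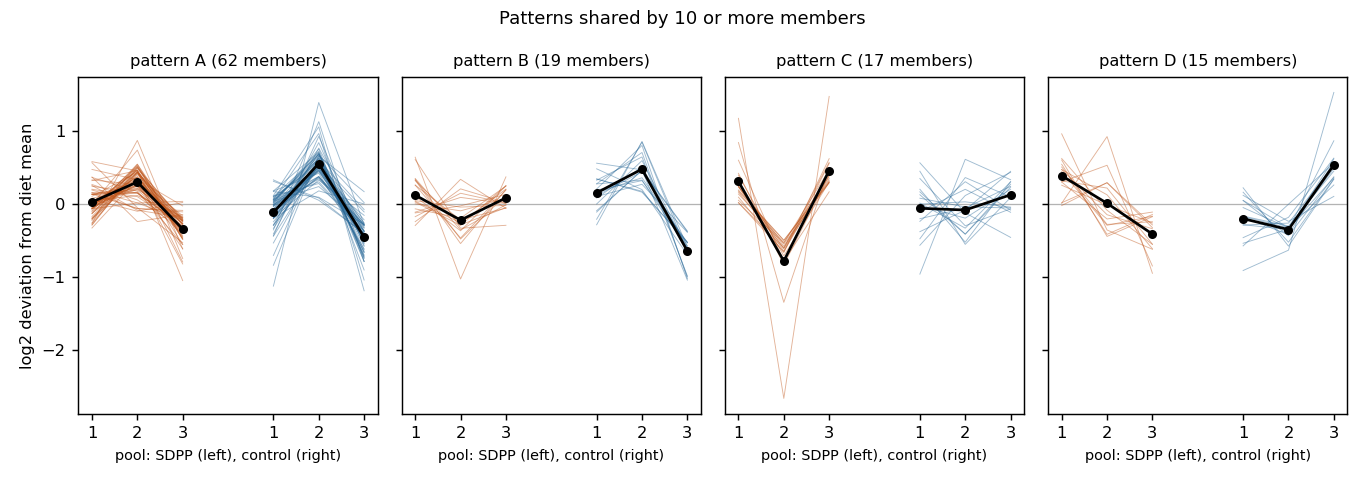
Deviation of each pool from the mean of its own diet (log2 units, vertical axis) for the members of patterns A to D, with SDPP pools 1 to 3 on the left in orange and control pools 1 to 3 on the right in blue. Thin lines are single members and black points their mean, and lines join the pools of a member only to make it visible. Control pool 2 is high and control pool 3 low in patterns A and B, SDPP pool 2 is low in pattern C and control pool 3 is high in pattern D.

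Some members had almost the same deviations from their diet means. Taking as near-identical 2 members whose deviations correlated at 0.98 or more and differed by at most 0.1 log2 units (root mean square over the arrays), 48 pairs were found among 39 members in 9 groups. Pattern A held 33 of these members, in 6 of the groups. Such pairs were not counted over all eligible names. Deviations of 3 pools in each of 2 diets vary in 4 components only. Each of the 18 named members had an eligible name whose deviations correlated with its own at 0.984 or more. In most cases this was a name outside the members. The largest group, listed after its values were seen, had 15 members, among them Contig131, Contig3064 and Seabream_2006-01-03-CL1154Contig1. Its mean deviations were -0.04, 0.31 and -0.28 in SDPP pools 1, 2 and 3 and 0.04, 0.62 and -0.66 in control pools 1, 2 and 3. Control pool 2 was above its diet mean by 0.43 to 0.76 in every one of these 15. The group was joined through such pairs, and not every 2 of its members were near-identical. Control pool 3 deviated by -0.90 to -0.37 within it. The diet difference had no part in this measure. In the near-identical pair of SCT1076_H01_JP12_3H1_001.ab1 and Contig3064, SDPP minus control was 0.76 and -0.69, and 13 of the 15 members were lower with SDPP. Whether these names are parts of the same transcript, related copies or separate genes cannot be read from the files, so that 150 names may stand for fewer transcripts. The mean deviations of the largest group had the same order of pools in each diet as those of pattern A. A part of the signal of the arrays in this likeness was not tested.

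The members were otherwise spread over the array's content. Names beginning with Contig made up 46% of them (42.9% of all eligible names), Seabream clusters 26% (30.1%) and cDN clones 24.7% (24.2%). When all eligible names were divided by mean level into 3 equal parts, the dimmest held 54 members, the middle part 51 and the brightest 45.

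For the comparison of the diets, 418 of the 1961 eligible names (21.3%) had an unadjusted p under 0.05 by limma, 248 of them higher and 170 lower with SDPP, and 16 of the 150 members were among them. No name passed after Benjamini-Hochberg adjustment (smallest adjusted p 0.0951), and the methods' unpaired test gave 347 names before adjustment and 0 after it. Scaling to the array median moved the split to 384 higher and 67 lower. The members' differences of SDPP minus control ran from -1.73 to 0.76 log2 units, with a median of -0.19, and 47 were above and 103 below 0, whereas the median over all eligible names was -0.0044. With array median scaling, which raised the median of all eligible names to 0.09, the members' median was -0.10, with 60 above and 90 below 0. Since names without overlap had been removed, nothing on the diet is read from the number of members called.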

How the data were processed

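Skin RNA of 6 pools (4 fish each, 200 ng labelled with Cy3) was measured on 6 single-colour arrays, 3 SDPP and 3 control, grouped by the sample labels. The authors deposited scanner tables of spot intensity, background-subtracted and spatially detrended by Feature Extraction (version 10.7.3.1 in the file headers) and not normalized between arrays, in which low signals were replaced by a positive surrogate. The authors' table of log2 values equals the log2 background-subtracted signal within 5e-09 and served as an alternative.

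Of the 43803 spots that are not controls, those flagged as outliers were omitted. The log2 processed intensity minus the array's 75th percentile was averaged over spots of a probe, then over probes of a name. A probe counted when at least 50% of its spots were well above background on each array. Diets were compared over 1961 names with limma 3.58.1 (R 4.3.3), without a block, and p-values were adjusted by Benjamini-Hochberg. Named were the 10 widest members, the 3 widest of each pattern with 10 or more members, and 2 names on each side of the limit. The scripts were tested on simulated data. The members and lists were chosen with earlier results of these data known. Replicates are separate pools of fish from the same tanks. The pool numbers were not used as pairs: deviations of equally numbered pools correlated at -0.08, 0.27 and 0.19. Alternatives were normexp (offset 50, on the median signal), quantile and median scaling, the authors' table, other filters, flagged spots kept, the median over probes, each pool left out, a replicate block, and the methods' t-test. Precision is limited by the small number of arrays. Probe sequences and gene names were not used here.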

Additional observations from a re-analysis of the deposited data

How the results depend on the processing

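Of the 150 members, 108 to 146 were chosen again with normexp, quantile or median scaling, the authors' table, the stricter filter, flagged spots kept, the median over probes and non-overlapping names kept, but only 44 with probes required on 3 of 6 arrays and 47 when names with 1 probe were ranked too, since both admit more names (3155 and 4434). With a pool left out 88 (without control pool 2) to 122 members were kept, and 90 without control pool 3. The probe correlation of 0.973 was 0.955 with normexp, 0.910 with the filter on 3 of 6 arrays and between 0.964 and 0.983 when a pool was omitted. The largest pattern held 30 names with the filter on 3 of 6 arrays and 37 (without control pool 2) to 94 (without control pool 1) when a pool was omitted, against 62. Among the 150 names chosen anew in each setting, control pool 2 stood farthest in 39 to 50 under the alternatives on 6 arrays. When an SDPP pool was omitted, it did so in 45 to 61. In the 150 members themselves it did so in 36 with normexp, 29 with the authors' table, 42 with quantile and 41 with median scaling. With the filter on 3 of 6 arrays it stood farthest in 39 names, high in 9 and low in 30, against high in 34 of 43. Such names could not be counted with a control pool left out.

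For the diets, 418 names had an unadjusted p under 0.05 by limma, against 271 with the authors' table and 258 (without SDPP pool 3) to 514 (without control pool 3) when a pool was omitted. After adjustment 24 names passed with the authors' table and 0 to 1 when a pool was omitted (1 without SDPP pool 1). The share higher with SDPP was 59.3%, against 85.1% with array median scaling, 71.5% with the methods' t-test, 49.1% with normexp, 41.8% without control pool 3 and 69.8% without SDPP pool 3. With the pool number as a replicate block 551 names passed before and 13 after adjustment. The labels give no pairing by number, and 3 of 6 pools correlated best with the other diet's pool of their own number. Whether equally numbered pools shared an effect was not tested. The cause of these differences in the counts was not tested either. The slide as a random block was not run, because only 1 slide held 2 arrays and duplicateCorrelation gave no value. Leaving out a part of the array of control pool 1, choosing on 1 probe and leaving out each probe were added after seeing the data. In 11 of the 18 named members leaving out 1 pool lowered the within-diet SD by more than 1.5 times. Leaving out the farthest of 3 pools lowers the SD of its diet in any name, and this count was not made over all eligible names. The farthest pool lay at least 0.75 of its diet's range from the next pool in 46.0% of the members and 47.9% of all eligible names. Weak signal limits the list, because a transcript under background in a single pool could not enter it.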

Other observations

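The requirement of a signal above background on all 6 arrays kept names with a weak signal in some pools off the list. When probes needed to pass on 3 of 6 arrays only, 3155 names were eligible, the SD of the last of the 150 widest was 0.544 in place of 0.353, and 118 of these 150 held a probe that was not well above background on at least 1 array. A value that is not well above background is uncertain, and no fold is given for it.

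The widest of these names, cDN11P0005O20.F.ab1, had 18 spots of 4 probes on the array. Its mean level over the spots was 3.98, 0.41 and 4.85 in SDPP pools 1, 2 and 3 and -3.95, 3.21 and 4.14 in control pools 1, 2 and 3, with an SD between the spots of at most 0.14 log2 units in every pool. All 18 spots were well above background in the SDPP pools and in control pools 2 and 3, and 0 of 18 in control pool 1. The 18 spots lay in rows 14 to 509 and columns 9 to 73. SDPP pool 2 was low beside SDPP pools 1 and 3, which is also seen in pattern C. The lowest pool of this name was control pool 1, and pattern C had no common direction there (9 members above the diet mean and 8 below). Contig3747 was the next, with 1.03 and -0.32 in SDPP pools 1 and 3 and 1.81 in control pool 1, where all 3 of its probes were well above background. None of the 3 was well above background in SDPP pool 2 or in control pools 2 and 3. Both names were chosen for their place in this ranking after the values were seen.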
